A study of Mus musculus with 8 samples.

Results

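The enzymes that write, maintain and remove DNA methylation were examined in mouse CD8+ T cells by bulk RNA-seq. The genes were chosen by symbol, and all 7 (*Dnmt1*, *Dnmt3a*, *Dnmt3b*, *Uhrf1*, *Tet1*, *Tet2* and *Tet3*) were present among the 22520 rows of the expression table. CD8+ T cells were purified from mouse spleens and held under stimulation with anti-CD3 and anti-CD28 antibodies and IL-2 up to day 6, a culture used to drive T cells toward exhaustion. From day 3 the medium held DMSO, the solvent, for 4 libraries and 40 µM diisopropylamine dichloroacetate (DADA) for the other 4. DADA is an inhibitor of pyruvate dehydrogenase kinase. All 8 libraries therefore shared the stimulation and differed by the added compound. The methods of the study give wild-type mice as the source of such cultures and list male C57BL/6J animals of 6 to 8 weeks. The labels do not tie a library to a strain, sex or age, or say which libraries share an animal or a culture. The p-values therefore measure the spread between these libraries, which may be less than that between animals or cultures. The question asked here was whether the transcripts of the DNA methylation machinery differed between DADA-treated and DMSO-treated cells.

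DNA methyltransferases place a methyl group on the cytosine of CpG dinucleotides, forming 5-methylcytosine. DNMT1 copies the mark to the new strand after replication and is brought to hemimethylated DNA by UHRF1, whereas DNMT3A and DNMT3B add methyl groups to sites without the mark. The TET enzymes oxidise 5-methylcytosine to 5-hydroxymethylcytosine and further products, a step toward removal, and need iron and 2-oxoglutarate. In CD8+ T cells, DNMT3A is known for silencing naive and memory genes as effector and exhausted cells form, and TET2 for restraining or shaping that differentiation.

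Transcript levels were given as FPKM, in which the fragments of a gene are divided by transcript length and by library depth, so that levels of different genes can be compared per length. A gene was tested when at least 4 libraries held 1 FPKM or more of it, which was so for 10666 rows. Differences were estimated with limma on log2(FPKM + 1) and called at an adjusted p-value under 0.05. The libraries resembled each other closely within a group, with Pearson correlations across genes of 0.993 to 0.995, against 0.958 to 0.961 between groups. The lowest FPKM values moved in steps, which gave an estimated depth of 13700000 to 16800000 fragments per library with DMSO and 14900000 to 19000000 with DADA. Markers of CD8+ T cells were abundant, and the 5 of 7 listed markers found in the table (*Cd3d*, *Cd3e*, *Cd3g*, *Cd8a* and *Cd8b1*) summed to 674 to 680 FPKM with DMSO and 776 to 805 FPKM with DADA. Markers of B cells summed to 2.36 to 3.56 FPKM over all libraries, with 4 of 5 genes never at 1 FPKM, those of myeloid cells to at most 0.188 FPKM, with *Csf1r* and *Adgre1* at 0, and those of erythroid cells to at most 0.241 FPKM, with *Hbb-bs* at 0. The CD4 T cell list summed to 15.3 to 17.4 FPKM, carried by *Zbtb7b* with a mean of 15.7 FPKM, while the other 3 of its genes never reached 1 FPKM. The NK cell list summed to 1.84 to 2.72 FPKM. In bulk RNA, a smaller share of cells that express a gene and less of its RNA per cell cannot be told apart.

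Promoter sequences are shown for a pair of genes that fell with DADA, *Uhrf1* and *Dnmt1*, and for *Tet2*, which rose, because these 3 genes mark the contrast described in the following paragraphs. Each is the 250 bases before an annotated start, from RefSeq on GRCm38.p6. The capitals mark a match to the E2F motif, the site of the factors that drive genes of DNA replication, searched on both strands as TTTCCCGC, TTTCGCGC, TTTGCCGC and TTTGGCGC.
*Uhrf1* (chr17:56304063-56304312, plus strand): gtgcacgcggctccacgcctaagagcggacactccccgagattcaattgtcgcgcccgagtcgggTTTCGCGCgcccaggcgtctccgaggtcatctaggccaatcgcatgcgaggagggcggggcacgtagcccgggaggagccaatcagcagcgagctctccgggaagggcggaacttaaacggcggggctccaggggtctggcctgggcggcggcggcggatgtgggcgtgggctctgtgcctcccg
*Dnmt1* (chr9:20952980-20953229, minus strand): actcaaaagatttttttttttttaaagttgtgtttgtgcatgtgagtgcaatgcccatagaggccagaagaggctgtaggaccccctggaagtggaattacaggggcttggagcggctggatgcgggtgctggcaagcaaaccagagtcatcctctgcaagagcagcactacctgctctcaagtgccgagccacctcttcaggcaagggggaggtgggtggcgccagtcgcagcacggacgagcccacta
*Tet2* (chr3:133544391-133544640, minus strand): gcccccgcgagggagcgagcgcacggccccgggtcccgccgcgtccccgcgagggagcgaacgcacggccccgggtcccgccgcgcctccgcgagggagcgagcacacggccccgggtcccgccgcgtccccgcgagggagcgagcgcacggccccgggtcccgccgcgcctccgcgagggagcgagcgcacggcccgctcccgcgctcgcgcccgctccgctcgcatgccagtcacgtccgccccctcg

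The *Uhrf1* stretch held 1 match, TTTCGCGC, at position -185 from the start, and 30 CpG dinucleotides. Another *Uhrf1* window, at a start further upstream, held no match and 10 CpG dinucleotides. The *Dnmt1* stretch held no match and 7 CpG dinucleotides. Another *Dnmt1* window, at a start further downstream and with 166 of its 250 upstream bases in annotated exons, held 2 matches. It had 26 CpG dinucleotides in those 250 bases. The *Tet2* stretch held no match and 51 CpG dinucleotides, 1.19 times the number its C and G content predicts. All 7 genes had a window in the table, 12 windows in all. Only 2 of them, the *Uhrf1* stretch shown and the downstream *Dnmt1* window, held the motif within their 300 bases, as did 2.26% of the 32851 windows of all genes. The median window of all genes had 6 CpG dinucleotides in the 250 bases before the start. A match in these letters is a description of the sequence and not a measurement of binding.

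With DMSO, *Uhrf1* and *Dnmt1* were the most abundant of the 7 transcripts, at 85.8 ± 1.01 and 81.0 ± 1.90 FPKM (SD, n = 4). *Dnmt3a* followed at 17.7 FPKM and *Tet3* at 12.5 FPKM. *Tet2* and *Dnmt3b* were close to each other, at 5.96 and 5.80 FPKM, their ranges overlapped, and *Tet2* was the higher of the pair in 2 of 4 DMSO libraries. *Tet1* was last at 0.188 FPKM, so that the ranges of every other pair of neighbours in this order were apart. With DADA the order of the means was the same, but *Tet2* stood at 8.73 FPKM against 3.66 FPKM for *Dnmt3b*, and it was higher in 4 of 4 libraries.

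All 6 genes that passed the filter were called between DADA and DMSO, 5 lower and 1 higher, and *Tet1* did not pass it. Among all genes tested, 66.2% were called, 35.3% lower and 30.9% higher with DADA. A call by itself was therefore common in these libraries, and the counts called in each gene list below are to be read against these shares. The groups did not overlap for any of the 6 genes, which was so for 60.6% of all genes tested. The log2 fold changes ran from -0.55 for *Dnmt3b* to 0.48 for *Tet2*, and the middle 80% of all genes tested lay between -0.41 and 0.50. *Dnmt3b* lay below this band, with a change larger than that of 86.5% of the genes tested. The other members that passed the filter lay within it.

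**Figure D1:**
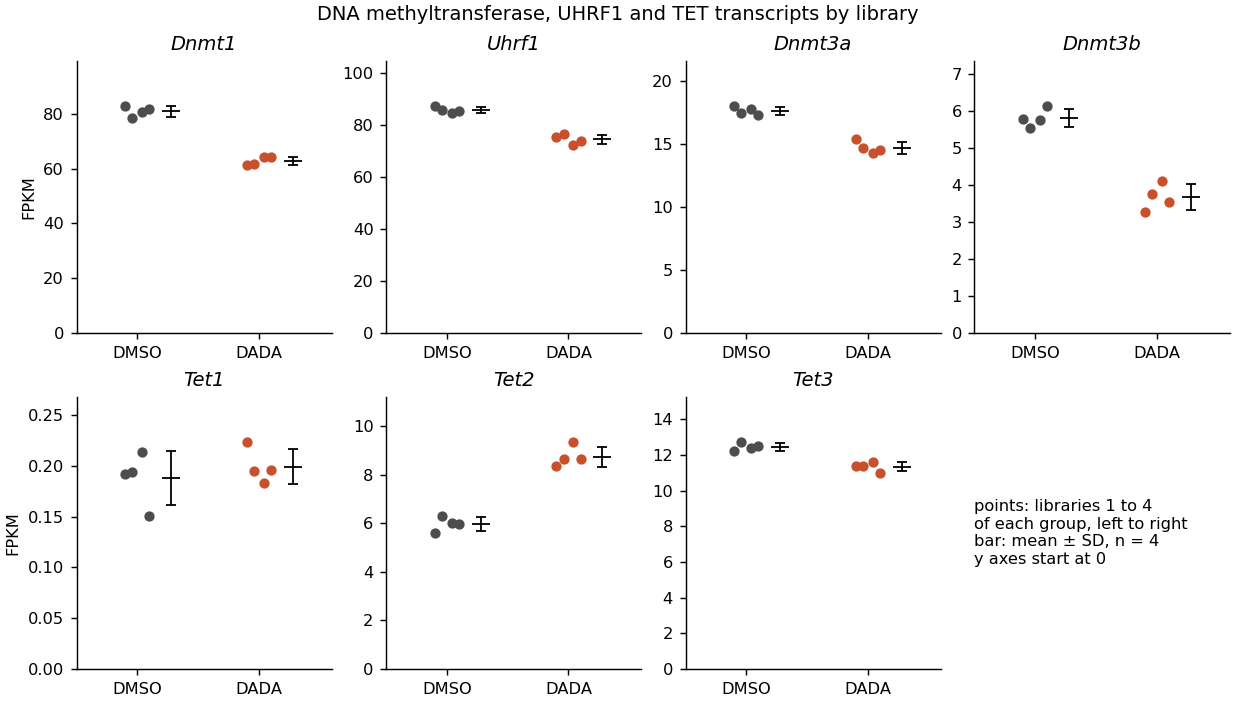
FPKM of the 7 genes in the 4 DMSO (grey) and 4 DADA (orange) libraries, with 1 point per library, the mean and SD (n = 4) beside them, and every y axis starting at 0. *Dnmt1*, *Uhrf1*, *Dnmt3a*, *Dnmt3b* and *Tet3* lie lower in every DADA library, *Tet2* lies higher in every DADA library, and the groups overlap for *Tet1*.

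Maintenance of methylation rests on DNMT1, whose transcript (*Dnmt1*, ENSMUSG00000004099) was at 82.8, 78.5, 80.6 and 82.0 FPKM under DMSO and at 61.4, 61.8, 64.2 and 64.2 FPKM under DADA. The groups were separated by 14.2 FPKM, several times the SD within either group, and the mean fell by 22.3%. The log2 fold change was -0.36 ± 0.0262 (SE; adjusted p = 1.06e-06 by limma; exact permutation test, two-sided, p = 0.0286, the smallest that 4 against 4 libraries allow). *Dnmt1* was more abundant than 90.7% of the genes tested, and its change was larger than that of 72.3% of them.

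*Uhrf1* (ENSMUSG00000001228), which encodes the protein that recognises hemimethylated CpG and guides DNMT1 there, was at 87.2, 85.9, 84.8 and 85.3 FPKM with DMSO and at 75.5, 76.4, 72.3 and 74.0 FPKM with DADA. The groups were 8.41 FPKM apart. The mean fell by 13.1%, less than that of *Dnmt1*, with a log2 fold change of -0.20 ± 0.0234 (SE; adjusted p = 3.40e-05 by limma). Within each library, *Uhrf1* was at 1.04 to 1.10 times the level of *Dnmt1* with DMSO and at 1.13 to 1.24 times with DADA, and these ranges did not overlap.

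Of the de novo enzymes, *Dnmt3a* (ENSMUSG00000020661) was at 18.0, 17.5, 17.8 and 17.3 FPKM with DMSO and at 15.4, 14.7, 14.3 and 14.5 FPKM with DADA. It was lower in every DADA library, its mean fell by 16.5%, and its log2 fold change was -0.25 ± 0.0321 (SE; adjusted p = 7.66e-05 by limma). GENCODE M21 places an antisense RNA over exons of *Dnmt3a*, and although the methods name a stranded library kit, the labels name another kit and the strand setting of the counting is not given in the sources used here, so fragments of that RNA cannot be told apart from those of *Dnmt3a*.

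*Dnmt3b* (ENSMUSG00000027478) was the lower of the de novo pair and had the largest fall of the 7 genes on the log2 scale. It was at 5.78, 5.54, 5.76 and 6.12 FPKM with DMSO and at 3.27, 3.74, 4.11 and 3.54 FPKM with DADA, so that the mean fell by 36.8%. The DADA libraries varied more than the DMSO libraries, with a coefficient of variation of 9.69% against 4.13%, but the highest of them was still 1.43 FPKM below the lowest DMSO library. The log2 fold change was -0.55 ± 0.0605 (SE; adjusted p = 2.31e-05 by limma). *Dnmt3b* made up 24.0 to 26.1% of the summed *Dnmt3a* and *Dnmt3b* FPKM with DMSO and 17.5 to 22.3% with DADA, a share added after the values were seen. Its paralog *Dnmt3c*, a tandem duplicate with which an aligner could share fragments, was at no more than 0.118 FPKM in any library.

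*Tet2* (ENSMUSG00000040943), the TET enzyme most often lost in blood cancers, was the only gene of the 7 that rose. It was at 5.58, 6.28, 6.01 and 5.95 FPKM with DMSO and at 8.34, 8.62, 9.32 and 8.64 FPKM with DADA. The lowest DADA library was 2.06 FPKM above the highest DMSO library, and the mean was 1.47 times that with DMSO. The log2 fold change was 0.48 ± 0.0470 (SE; adjusted p = 8.77e-06 by limma; exact permutation test, two-sided, p = 0.0286). The size of this change exceeded that of 83.0% of the genes tested. An antisense RNA overlaps exons of *Tet2* in GENCODE M21 as well, and its share of the fragments was not tested.

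*Tet3* (ENSMUSG00000034832) went the other way, from 12.2, 12.7, 12.4 and 12.5 FPKM with DMSO to 11.4, 11.4, 11.6 and 11.0 FPKM with DADA. The groups were apart by only 0.65 FPKM, the narrowest gap among the 6 genes as a share of the DMSO mean (5.21%), and the mean fell by 8.99%. Its log2 fold change was -0.13 ± 0.0314 (SE; adjusted p = 0.00533 by limma), smaller than that of most genes tested, since 32.2% of them changed less.

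*Tet1* (ENSMUSG00000047146) was barely detected, at 0.192, 0.194, 0.214 and 0.151 FPKM with DMSO and 0.223, 0.195, 0.183 and 0.196 FPKM with DADA. The groups overlapped. Counted over its longest annotated transcript, these values correspond to an estimated 29.8 to 54.7 fragments per library. Fitted without the filter over 16167 genes, its log2 fold change was 0.01 ± 0.0204 (SE; adjusted p = 0.619 by limma; exact permutation test, p = 0.486). Under quantile normalization *Tet1* was called lower instead (-0.06, adjusted p = 0.0326, limma), and without DMSO 4 its value was -0.00107. Its SD was 14.0% of the mean with DMSO, so a difference of the size seen for *Tet3* lies within the spread of its libraries.

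The opposite movement of *Tet2* and *Tet3* changed the balance between the TET transcripts within each library. The level of *Tet2* was 0.456, 0.495, 0.484 and 0.475 times that of *Tet3* under DMSO and 0.732, 0.756, 0.804 and 0.785 times under DADA. As a share of the summed TET transcripts, *Tet2* made up 31.0 to 32.8% with DMSO and 41.8 to 44.2% with DADA. *Tet3* remained the more abundant of the pair in all 8 libraries. The summed FPKM of the 3 TET genes was 18.0 to 19.2 with DMSO and 19.8 to 21.1 with DADA, while that of *Dnmt1*, *Dnmt3a* and *Dnmt3b* was 101 to 107 with DMSO and 80.0 to 82.6 with DADA. A ratio within a library does not depend on the scaling between libraries, and no test was run on these ratios. The summed FPKM values, added after the values were seen, do depend on that scaling and were not tested either.

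**Figure D2:**
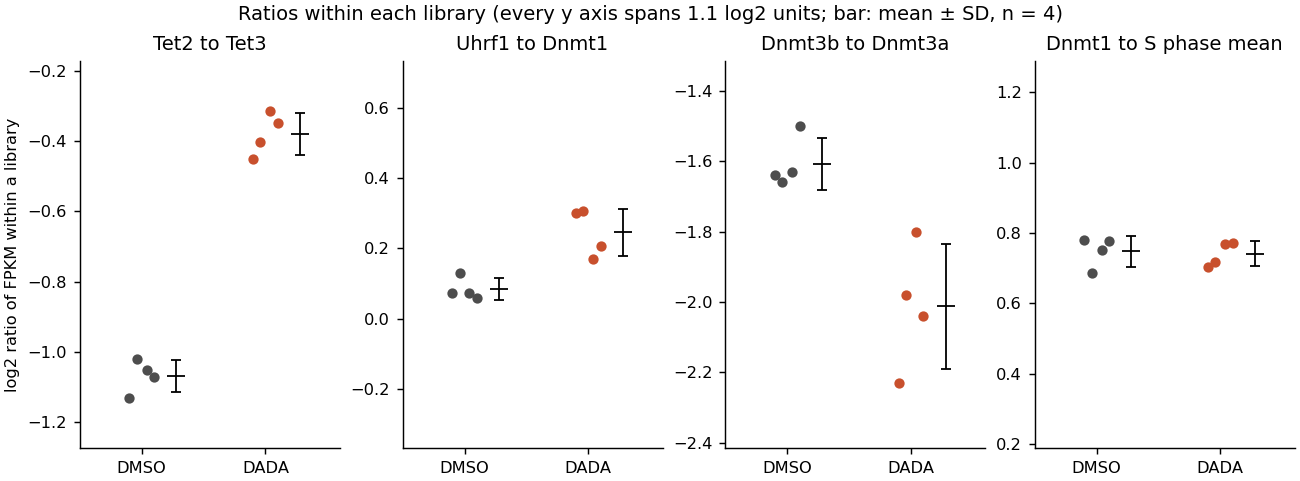
Log2 ratios of FPKM within each library for 4 DMSO (grey) and 4 DADA (orange) libraries, with the mean and SD (n = 4), on y axes that all span 1.1 log2 units. The ratio of *Tet2* to *Tet3* is higher in every DADA library, and those of *Uhrf1* to *Dnmt1* and *Dnmt3b* to *Dnmt3a* differ without overlap. That of *Dnmt1* to the mean of the S phase genes overlaps between the groups. The ratio of *Dnmt3b* to *Dnmt3a* was added after the values were seen. The ratio of *Dnmt1* to *Dnmt3a*, chosen beforehand and not drawn, overlapped, at 2.16 to 2.25 with DMSO and 2.0 to 2.17 with DADA (log2).

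*Dnmt1* and *Uhrf1* are transcribed with the genes of DNA replication, so both were set against a list of 20 S phase genes. Of these, 18 were lower, 1 was higher and 1 was not called, with a median log2 fold change of -0.35 against -0.02 over all genes tested. *Tyms* (thymidylate synthase) fell from 23.8 to 11.7 FPKM, *Mcm2* (a subunit of the replicative helicase) from 68.3 to 44.5 FPKM and *Rrm2* (ribonucleotide reductase) from 112 to 73.4 FPKM. *Pcna*, the replication clamp that DNMT1 binds, fell from 261 to 230 FPKM (log2 fold change -0.18), and *Cdc6*, which loads the helicase, was the gene that rose, from 12.6 to 17.8 FPKM.

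Relative to the mean log2 FPKM of this list, *Dnmt1* was at 0.685 to 0.781 with DMSO and at 0.703 to 0.773 with DADA, so the groups overlapped. By the same measure, added after the values were seen, *Uhrf1* moved from between 0.816 and 0.855 to between 0.941 and 1.02, and *Dnmt3a* moved from between -1.48 and -1.42 to between -1.40 and -1.29. *Dnmt3b* moved the other way, from between -3.14 and -2.97 to between -3.53 and -3.20. The mean ratio of *Dnmt1* to the list differed by -0.00752 between the groups, less than the SD of 0.0445 within DMSO, whereas *Uhrf1* and *Dnmt3a* fell by less than the list and *Dnmt3b* by more, without overlap between the groups. None of these ratios was tested. Whether fewer cells were in S phase was not tested.

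Partners of the methyltransferases were examined as a list of 10 genes, of which 8 passed the filter, with 5 lower, 2 higher and 1 not called (median log2 fold change -0.14). *Cdca7* and *Hells*, which encode a nucleosome remodelling pair needed for DNA methylation in packed chromatin, both fell. *Cdca7* was at 66.9, 67.6, 65.3 and 63.1 FPKM with DMSO and at 31.1, 29.5, 30.9 and 28.6 FPKM with DADA, which is -1.10 on the log2 scale (adjusted p = 1.84e-09, limma). *Hells* was at 48.6 to 51.0 FPKM with DMSO and 35.0 to 36.1 FPKM with DADA (log2 fold change -0.47). *Pclaf*, which encodes a PCNA-bound protein that recruits DNMT1, fell from 106 to 75.6 FPKM. These 3 genes had the largest called falls of the list, and each changed by more than *Dnmt1*. The other called falls of the list were smaller than that of *Dnmt1*. *Ehmt2*, a histone H3 lysine 9 methyltransferase, rose from 38.4 to 42.3 FPKM. *Uhrf2*, the paralog of *Uhrf1*, was at 25.6 to 27.6 FPKM with DMSO and 27.0 to 29.8 FPKM with DADA. Its groups overlapped, and its call (log2 fold change 0.10, adjusted p = 0.0411, limma) did not hold in 8 of 17 other settings. It was lost once DMSO 1 (0.08), DMSO 2 (0.08), DADA 1 (0.07), DADA 2 (0.09) or DADA 4 (0.10) was left out, with adjusted p-values up to 0.113 by limma. It was also lost with the replicate number as a block (0.10, adjusted p = 0.0785, limma), without the filter (adjusted p = 0.0533) and without the trend (adjusted p = 0.0559). *Dnmt3l* and *Zfp57* were below the filter and did not exceed 0.102 FPKM in any library.

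The proteins that read methylated CpG were a list of 7 genes, all of which passed the filter. In this list 4 were higher, none was lower and 3 were not called, with a median log2 fold change of 0.12. Among all genes tested, 30.9% were higher and 66.2% were called in either direction. *Zbtb38*, a zinc finger reader, was at 6.56, 3.66, 4.99 and 5.53 FPKM with DMSO and at 9.76, 9.42, 10.2 and 14.8 FPKM with DADA, a log2 difference of 0.96 ± 0.162 (SE; adjusted p = 4.52e-04 by limma). It was higher in every DADA library but varied widely between replicates. *Zbtb4* rose from 1.15 to 1.61 FPKM (log2 fold change 0.28), without a call under quantile normalization. *Mbd2*, the most abundant reader, was at 68.0 and 69.9 FPKM (log2 fold change 0.04, adjusted p = 0.184, limma), and was singled out after its values were seen, like *Tdg* and *Mat2a* in the paragraphs that follow.

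A list of 14 genes held base excision enzymes, which complete the removal of oxidised cytosine, and other partners of active demethylation, among them an inhibitor of TET2. Of the 12 that passed the filter, 2 were higher, 4 were lower and 6 were not called (median log2 fold change -0.12), against 66.2% called among all genes tested. *Tdg*, the glycosylase that cuts out the oxidised bases made by TET enzymes, was at 49.5 and 47.1 FPKM (log2 fold change -0.07, adjusted p = 0.329, limma). *Parp1*, a sensor of DNA breaks, fell from 59.5 to 40.5 FPKM, and *Lig3*, a DNA ligase of the pathway, from 15.9 to 12.7 FPKM. The stress-induced pair *Gadd45a* and *Gadd45b* moved apart. *Gadd45a* fell from 6.37 to 4.19 FPKM (log2 fold change -0.51), whereas *Gadd45b* rose from 26.8 to 49.5 FPKM (log2 fold change 0.86, adjusted p = 2.09e-08, limma). *Xrcc1*, the scaffold of the pathway, rose from 18.9 to 21.7 FPKM. *Cxxc4*, an inhibitor of TET2, was listed at 0 in all 8 libraries, and *Neil2* stayed below the filter with at most 1.24 FPKM.

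**Figure D3:**
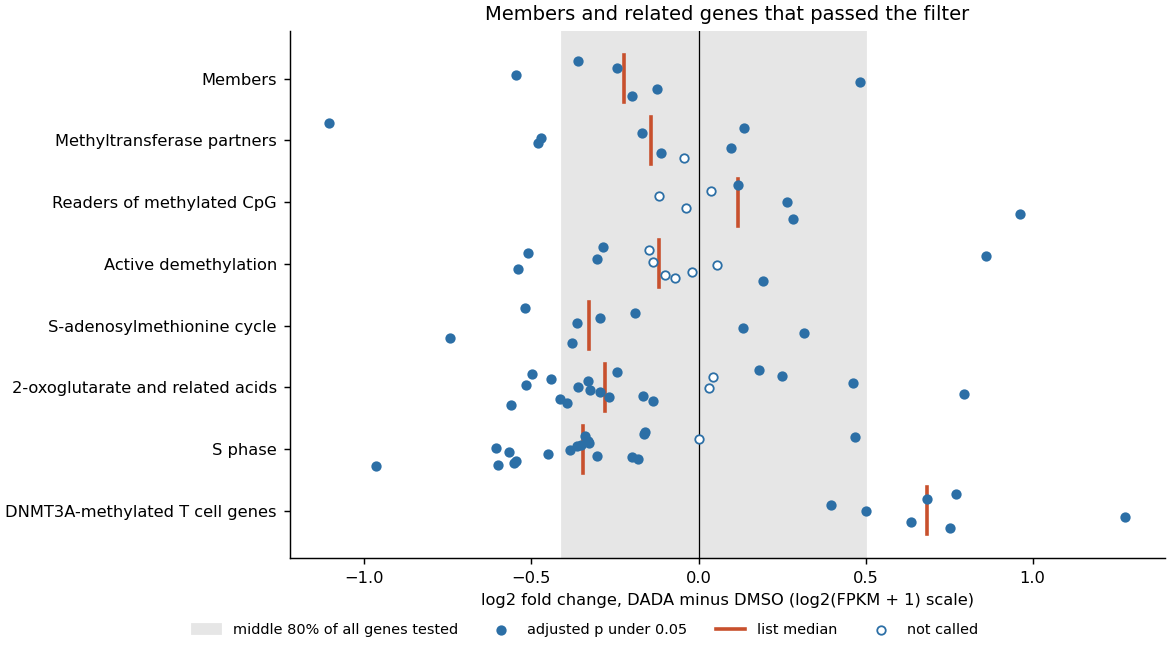
Log2 fold change (DADA minus DMSO) of each gene that passed the filter, by list, with filled points for an adjusted p under 0.05, open points for genes not called, orange bars for list medians and a grey band for the middle 80% of all genes tested (-0.41 to 0.50). List medians lie below 0 for the members, the partners, the demethylation, S-adenosylmethionine, 2-oxoglutarate and S phase lists, and above 0 for the readers of methylated CpG and the DNMT3A-methylated T cell genes.

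The methyl donor of every DNA methyltransferase is S-adenosylmethionine. In the list of 8 genes of its cycle, 6 were lower and 2 were higher, with a median log2 fold change of -0.33. *Mtr*, the methionine synthase, was at 11.4, 11.7, 11.9 and 12.0 FPKM with DMSO and at 6.54, 6.51, 6.89 and 6.56 FPKM with DADA, which is -0.74 on the log2 scale (adjusted p = 4.71e-08, limma). *Mtrr*, which reactivates that enzyme, fell from 15.5 to 11.7 FPKM, and *Adk*, which clears the adenosine formed after methyl transfer, from 38.1 to 26.3 FPKM. *Mat2a*, which makes S-adenosylmethionine, was lower in every DADA library, at 71.2 to 73.1 FPKM against 89.2 to 96.6 FPKM with DMSO. *Mat2b*, its regulatory subunit, rose from 35.1 to 38.6 FPKM.

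TET enzymes consume 2-oxoglutarate and are inhibited by succinate, fumarate and 2-hydroxyglutarate. Of the 20 genes that make or use these acids, 14 were lower, 4 were higher and 2 were not called (median log2 fold change -0.28). Of the 5 isocitrate dehydrogenase genes, whose enzymes form 2-oxoglutarate, 3 fell, 1 rose and 1 was not called. Mitochondrial *Idh2* fell from 25.6 to 17.6 FPKM (log2 fold change -0.52), *Idh3a* and *Idh3g*, singled out after their values were seen, fell by 0.36 and 0.33 on the log2 scale, and cytosolic *Idh1* rose from 3.23 to 4.83 FPKM (log2 fold change 0.46, adjusted p = 0.00161, limma). *Sdhb* and *Fh1*, of the enzymes that use succinate and fumarate, fell from 124 to 83.6 FPKM and from 35.8 to 25.0 FPKM. *Ldha*, whose enzyme can form 2-hydroxyglutarate as a by-product, rose from 1125 to 1951 FPKM. Metabolite levels were not measured in these libraries.

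**Figure D4:**
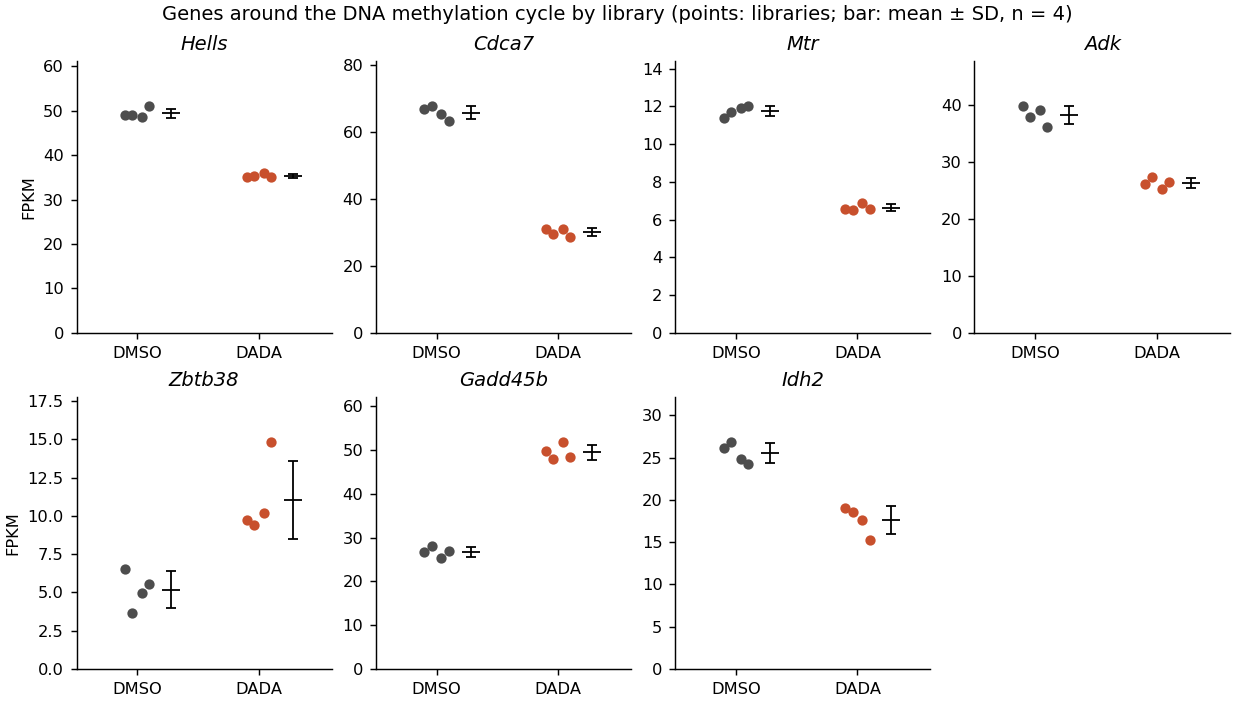
FPKM of 7 genes around the DNA methylation cycle in the 4 DMSO (grey) and 4 DADA (orange) libraries, with 1 point per library, the mean and SD (n = 4), and y axes that start at 0. *Hells*, *Cdca7*, *Mtr*, *Adk* and *Idh2* are lower and *Zbtb38* and *Gadd45b* higher in every DADA library. These genes were picked for display by no set rule. Not drawn are genes without a call, such as *Tdg* and *Mbd2*, and relatives that moved the other way, *Idh1* (log2 fold change 0.46) and *Gadd45a* (-0.51).

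Genes whose promoters are kept silent by methylation in somatic cells give a further readout. Of 11 such germline genes, none reached the filter. *Mael*, *Asz1*, *Tex101*, *Slc25a31* and *Rhox5* were listed at 0 in all 8 libraries, and *Sycp3*, *Tdrd1* and *Hormad1* did not exceed 0.0556 FPKM. *Taf7l* was at 0.346, 0.331, 0.461 and 0.271 FPKM with DMSO and at 0.0448, 0.0285, 0.0920 and 0 FPKM with DADA, lower in every DADA library (limma without the filter, adjusted p = 1.69e-04). *Dazl* was also lower, at 0.0635 to 0.0906 FPKM with DMSO and at most 0.0549 FPKM with DADA (adjusted p = 0.00756, limma without the filter). *Ddx4* was higher, at 0.0868 to 0.164 FPKM with DMSO and 0.198 to 0.296 FPKM with DADA (limma without the filter, log2 fold change 0.13, adjusted p = 0.00902), but under quantile normalization it was not called (0.05, adjusted p = 0.187). These levels stand for few fragments, and no methylation was measured.

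Genes known to gain DNMT3A-dependent methylation in CD8+ T cells formed a last list of 7, all of which were higher with DADA, with a median log2 fold change of 0.68. *Ccr7*, a chemokine receptor of naive and central memory cells, was at 274, 264, 261 and 265 FPKM with DMSO and at 449, 466, 454 and 451 FPKM with DADA. *Tcf7*, which encodes TCF1, was at 32.2 to 33.7 FPKM with DMSO and 54.8 to 57.3 FPKM with DADA. For both genes every DADA library was the higher. Several genes of this list were chosen by the study on these libraries, so their direction is not independent evidence.

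The genes most like each member were those with the highest Pearson correlation over the 8 libraries among 10500 other annotated genes. Between groups that differ, such a correlation mainly follows the difference between the groups, and it carries no p-value. For *Dnmt1* these were *Dld* (r = 0.997), which encodes a shared subunit of the pyruvate and 2-oxoglutarate dehydrogenase complexes, the RNA-binding *Syncrip* and *Rfc2*, a clamp loader subunit. *Dld* fell from 81.8 to 61.6 FPKM, close to the values of *Dnmt1* itself. For *Uhrf1* they were *Ankrd13b*, *Cdc42se1* and the elongation factor gene *Eef1g*, for *Dnmt3a* the fatty acid synthase gene *Fasn*, *Grk2* and *Hdgf*, and for *Dnmt3b* they were *Naf1*, *Ifi30* and the mitotic kinesin gene *Kif15*. For *Tet2* they were *Dnajc3* (r = 0.997), *Canx* and *Crybg1*, the first of which encode chaperones of the endoplasmic reticulum, and *Dnajc3* rose from 15.7 to 20.3 FPKM. For *Tet3* they were *Thumpd1*, *Zc3h15* and *Mmgt1*, with the lowest correlation of these 18 pairs at 0.988.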

How the data were processed

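Bulk RNA-seq of 8 libraries was used, 4 DMSO and 4 DADA, grouped by their titles. The authors deposited FPKM values from paired-end reads, 1 for each gene in each library. The submitters' processing notes name HISAT2 2.0.5, StringTie 1.3.3 and the builds GRCm39 and GRCh38, without roles. The methods of the study name a stranded kit and the labels a dual-mode kit. The annotation and the strand setting of the counting are not given in the sources used here. Of 22520 rows, 415 are transcripts without a gene identifier and 6353 are 0 in every library.

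FPKM values were analysed as log2(FPKM + 1), which understates changes of low genes, with limma 3.58.1 in R 4.3.3 (lmFit, 1 term for DADA, eBayes with trend, Benjamini-Hochberg over the 10666 rows tested). For single genes, an exact permutation test (two-sided, 70 assignments, scipy 1.17.1) was added. In simulated data of 10666 genes, both groups were drawn from the DMSO means with independent noise of the spread seen within groups, and 200 genes were changed. The fit recovered 170 of these and made 6 false calls. In the real libraries 66.2% of the genes tested were called, so the simulation does not give the error rate of those calls. Depth came from values of 4290 genes with a single transcript in GENCODE M21, as the depth that put the most values near a single fragment. Of the values below a few fragments, 35.0 to 49.7% then lay within 0.1 of a whole fragment. A depth not chosen from these values would give 20% by chance, so part of the excess follows from the choice. Since this depth is estimated, count tests were not used.

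The members and the gene lists were chosen with earlier results of these data known. Named genes are all members, the 3 largest called rises and falls of each list, list genes below the filter, *Pcna*, and the 3 genes most correlated with each member, less a few that are not reported here. Alternatives were a pseudocount of 0.1, no filter, a mean of at least 5 FPKM, TPM, median-ratio scaling, quantile normalization, no trend, the replicate number as a block, no transcripts without a gene identifier, and each library left out. Figures were drawn with matplotlib 3.10.9.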

Additional observations from a re-analysis of the deposited data

Results flagged for a closer look

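In 130 groups of 4 libraries, 7 had 1 library far from the other 3, by its gap divided by the range of the group (above the 95% critical value of Dixon's ratio). About 1 in 20 groups, here 6.5, would be picked out by chance, and no value of a single member was among them. The log2 ratio of *Dnmt3b* to *Dnmt3a* was -1.50 in DMSO 4 against -1.66 to -1.63 in the other DMSO libraries (ratio 0.831). *Zbtb38* was at 14.8 FPKM in DADA 4 against 9.42 to 10.2 FPKM in the other DADA libraries (0.852), and *Zbtb4* at 1.53 FPKM in DADA 1 against 1.62 to 1.63 FPKM (0.889). *Mtr* was at 6.89 FPKM in DADA 3 against 6.51 to 6.56 FPKM (0.868). In DMSO 1, *Mat2b* was at 34.3 FPKM with the other 3 at 35.4 to 35.5 FPKM (0.924), *Rrm2* at 107 FPKM against 113 to 114 FPKM (0.846) and *Canx* at 169 FPKM against 173 to 174 FPKM (0.859). No cause was tested for these values.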

How the results depend on the processing

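Under the 17 alternatives, *Dnmt1*, *Dnmt3a*, *Uhrf1*, *Tet2* and *Tet3* kept their direction and their call, as did *Dnmt3b* under the 16 that tested it, since its mean is below 5 FPKM. The log2 fold change of *Dnmt1* lay between -0.37 and -0.31, of *Dnmt3a* between -0.26 and -0.22, of *Dnmt3b* between -0.65 and -0.50, of *Uhrf1* between -0.21 and -0.15, of *Tet2* between 0.43 and 0.55 and of *Tet3* between -0.15 and -0.10, with *Tet3* having the highest adjusted p-value of these (0.0323). *Tet1*, fitted without the filter, turned to -0.0637 under quantile normalization (limma, adjusted p = 0.0326), and its log2 fold change ranged from -0.00107 (without DMSO 4) to 0.0244 with each library left out, and the cause was not tested. Between 5741 and 7868 genes and between 67 and 74 genes of the related lists (69 in the main analysis) were called. With the replicate number as a block, 6995 genes and 6 members were called, and no call of a member changed. Same-numbered libraries had correlations of their deviations from the group means of 0.0953, -0.120, -0.0877 and 0.0751. No pairing by number was seen in these values, but whether libraries share an animal was not tested. Of 35 called genes of the related lists that were recomputed (the genes most correlated with each member were not), 3 lost their call under some setting, namely *Uhrf2*, *Zbtb4* (log2 fold change 0.12) and *Ddx4* (0.05), the last 2 under quantile normalization. The estimated 29.8 to 54.7 fragments per library limit what can be seen for *Tet1*.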
